A study of Mus musculus with 15 samples.

Results

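The collagen genes of the mouse are described here, in primary lung fibroblasts labelled Atm-/- or Atm+/+. Atm encodes a kinase that is activated by breaks in DNA. They were chosen by name, as every gene whose mouse symbol is Col, a type number, the letter a and a chain number. The rule found 44 of the 48440 genes in the count table. They comprise 11 fibrillar chains, 6 basement membrane chains of type IV, 9 FACIT chains (fibril-associated collagens with interrupted triple helices) and 18 others. Of the 44, 37 had enough reads to be tested among 18167 genes in all, and the other 7 (Col9a1, Col19a1, Col6a4, Col6a5, Col6a6, Col25a1 and Col26a1) did not pass the filter on low counts.

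RNA was sequenced in 5 groups of 3 libraries from C57BL/6 lung fibroblasts grown at 3% O2. They were Atm-/- cells at passage 8 and at passage 2, Atm+/+ cells labelled passage 2 that had received 10 Gy of X-rays and were harvested 10 days later, and unirradiated Atm+/+ cells at passage 8 and at passage 2. Each library of a group came from another of 3 fibroblast strains per genotype, so replicates differ by strain, and the labels do not state which libraries of different groups share one. How the Atm allele was disrupted, and whether unirradiated cells were also kept for 10 days, is not given in the sources used here.

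A collagen is built from 3 polypeptide chains wound into a triple helix, and each type has its own combination of chains. Fibroblasts make most of the collagen of the lung. The fibrillar types I, III, V and XI form the load-bearing fibrils, FACIT collagens sit on the fibril surface, and type IV forms the sheet-like network of basement membranes. Other types make beaded filaments (VI), anchoring fibrils (VII) or hexagonal networks (VIII), span the cell membrane, or border the basement membrane (the multiplexins XV and XVIII).

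Library totals were 13.6 to 39.2 M (mega) counts. A pair of libraries stood apart when all were thinned to one depth: 14696 genes had reads in replicate 3 of Atm-/- passage 8 and 16919 in replicate 3 of Atm+/+ passage 2, while each of the other 13 had 19225 or more. Reads of Atm itself were few, 27 to 34 in Atm-/- passage 8, 38 to 70 in Atm-/- passage 2, 50 to 85 in irradiated cells, 42 to 73 in Atm+/+ passage 8 and 32 to 64 in Atm+/+ passage 2. No difference between genotypes passed for Atm at passage 8 (log2 fold change -0.24 ± 0.53, SE, adjusted p = 0.788 in edgeR) or passage 2 (-0.17 ± 0.52, SE, adjusted p = 0.883 in edgeR). These few reads do not check the genotype labels, and groups are named as labelled. All 10 fibroblast markers listed (Pdgfra, Pdgfrb and Dcn among them) averaged at least 1 TPM (transcript abundance scaled for gene length and library size) in each of the 5 groups. Markers of macrophages and endothelial cells changed strongly with passage, and their levels are given beside the passage results. In bulk RNA, fewer cells of a type and less RNA per cell cannot be told apart. Levels below are the deposited TPM of replicates 1, 2 and 3, in this order. Differences are log2 fold changes from edgeR's quasi-likelihood test with their standard error (SE), with p-values adjusted over all genes tested and a threshold of 0.05.

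The summed collagen level was lowest in Atm-/- passage 8. Summed over the 44 genes, they reached 2450.4, 3731 and 1666 TPM in Atm-/- passage 8. The sums were 7482, 8834 and 9993 TPM in Atm-/- passage 2 and 10276, 9139 and 9423 TPM in irradiated cells. They were 11899, 9671 and 13019 TPM in Atm+/+ passage 8 and 8655, 11726 and 5131 TPM in Atm+/+ passage 2. The 3 Atm-/- passage 8 libraries lay below each of the other 12. The next lowest library was Atm+/+ passage 2 replicate 3, one of the pair with few genes detected. As a share of a library's gene counts, collagens took 0.994, 1.42 and 0.814% in Atm-/- passage 8, against 4.11, 3.39 and 4.19% in Atm+/+ passage 8.

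**Figure D1:**
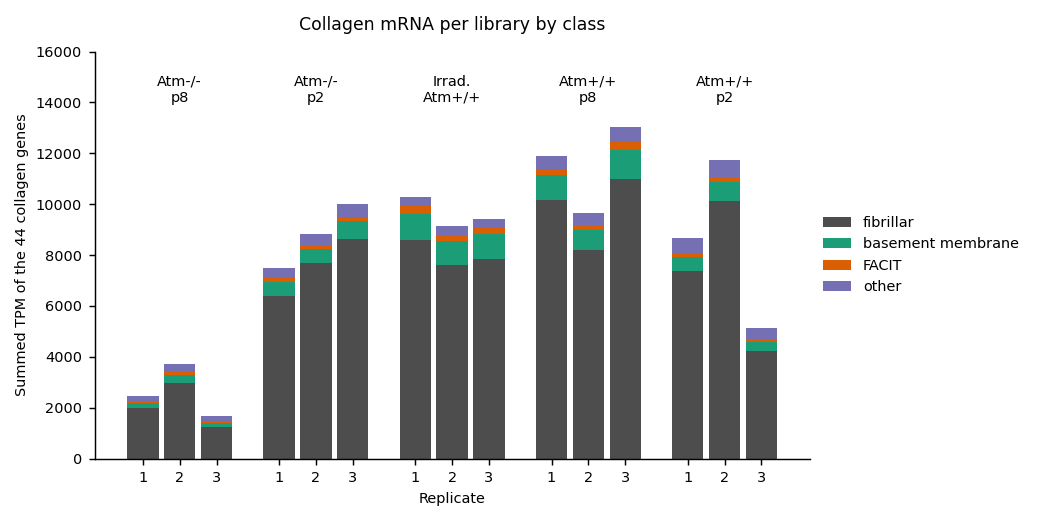
Summed TPM of the 44 collagen genes (vertical axis) in each of the 15 libraries (horizontal axis, replicates 1 to 3 by group), split by class. The 3 Atm-/- passage 8 bars, at 2450.4, 3731 and 1666 TPM, are the lowest, and fibrillar collagens fill most of every bar.

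Fibrillar chains were 73.6% to 86.8% of the collagen TPM of a library. Col1a1 and Col1a2, the chains of type I collagen, and Col3a1, the single chain of type III, led in the 12 libraries outside Atm-/- passage 8. Together they held 56.9, 62.4 and 55.8% of collagen TPM in the Atm-/- cells of passage 8, 74.9, 78 and 77.8% in those of passage 2, and 69.1, 68.7 and 68.9% in irradiated cells. The share was 74.8, 73.4 and 73.4% in Atm+/+ passage 8 and 78.5, 79.5 and 75.3% in Atm+/+ passage 2. Col5a2 of type V came next in each of these 12 libraries. A mean of 10 TPM in at least 1 group, together with a passing test in at least 1 of the 7 comparisons, marked the 22 collagens whose values are given in every library. The lowest of them was Col7a1, with a highest group mean of 10.8 TPM, and the nearest below was Col27a1, with 5.81 TPM.

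**Figure D2:**
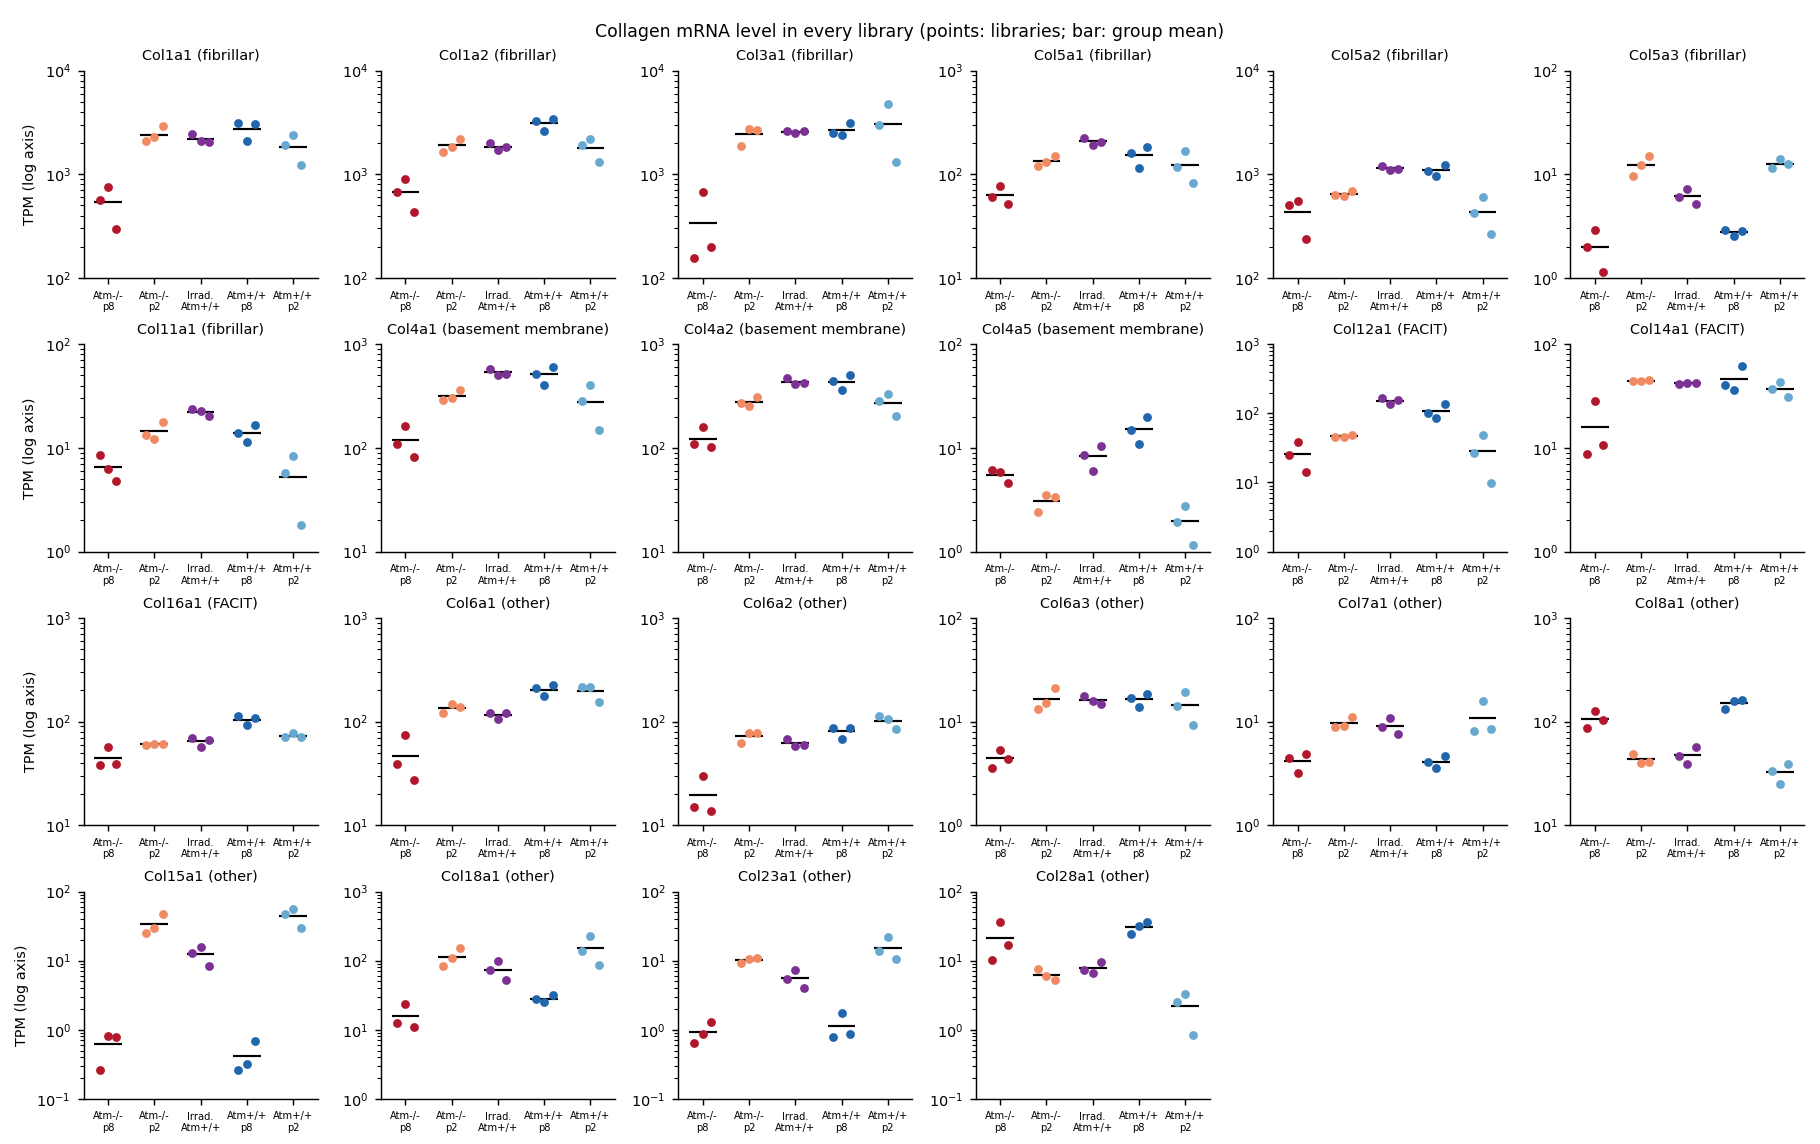
TPM (log axis) of the 22 collagens in each library. Points are libraries, bars are group means and groups run from Atm-/- passage 8 on the left to Atm+/+ passage 2 on the right. Col1a1, Col1a2 and Col3a1 are lowest in the 3 Atm-/- passage 8 libraries, and Col15a1 is below 1 TPM in both passage 8 groups.

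Late cultures of the genotypes were compared first, at passage 8, which asks how cells without Atm differ after serial division. Members of every class were lower without Atm. Of the 37 tested, 17 fell and 0 rose in edgeR. At an unadjusted p under 0.05 there were 18 lower and 1 higher, and all genes were not counted at that cut. DESeq2 called 17 collagens lower and 1 higher, among 1597 genes lower and 1928 higher. In edgeR, 4.29% of all 18167 genes were called lower and 5.03% higher. With limma on the scale of log2(TPM + 1), 14 collagens were lower and 0 higher. On that scale the background leaned the same way: 26.8% of all genes called were higher, and the median over all genes was -0.29. The groups did not overlap in normalised counts per M for 19 collagens, all lower, which was so for 23% of all genes, with 16.8% higher without overlap. The median log2 fold change was -0.84 over the tested collagens and -0.08 over all genes tested. Those that fell were 6 of 11 fibrillar, 3 of 6 basement membrane, 4 of 7 tested FACIT and 4 of 13 tested other chains.

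Among the fibrillar chains, Col3a1 (chromosome 1, 45311538 to 45349706, plus strand in GRCm38) showed the steepest fall of the abundant ones. It had 156, 673 and 197 TPM in Atm-/- passage 8 libraries, against 2509.8, 2395 and 3102 TPM in Atm+/+ passage 8 libraries, log2 fold change -2.71 ± 0.42 (SE, adjusted p = 0.00271 in edgeR). The groups did not overlap, and Atm-/- replicate 2 stood above its 2 fellows. Col1a1 (chromosome 11, 94936224 to 94953042, plus strand) was at 566, 751 and 298 TPM without Atm and at 3096, 2081 and 3069 TPM with it. Col1a2 (chromosome 6, 4504814 to 4541544, plus strand) was at 672, 904 and 434 TPM in Atm-/- cells, against 3296, 2625 and 3381 TPM in Atm+/+ cells. Both type I chains were lower in all 3 Atm-/- libraries, with log2 fold changes of -2.09 ± 0.22 and -1.93 ± 0.17. Type V collagen, which nucleates type I fibrils and limits their width, fell less. Col5a1 had 60.9, 77.1 and 51.9 TPM in Atm-/- and 159.7, 115 and 183 TPM in Atm+/+ passage 8 cells, log2 fold change -0.95 ± 0.17 (SE, adjusted p = 0.00509 in edgeR). Col5a2 had 507, 552 and 237 TPM in Atm-/- and 1080.2, 957 and 1239 TPM in Atm+/+ passage 8 cells, or -1.08 ± 0.18 (SE, adjusted p = 0.00378 in edgeR). Neither pair of groups overlapped. The minor chains Col5a3 and Col11a1 did not pass, at -0.19 ± 0.21 and -0.78 ± 0.30.

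Both major chains of basement membrane collagen fell together. Col4a1 was at 109, 164 and 81.8 TPM in Atm-/- passage 8, against 517, 408 and 610.4 TPM in Atm+/+ passage 8, log2 fold change -1.82 ± 0.21 (SE, adjusted p = 0.000431 in edgeR). Col4a2 was at 108, 159.8 and 101 TPM in Atm-/- passage 8, against 439, 362 and 509 TPM in Atm+/+ passage 8, or -1.51 ± 0.17 (SE, adjusted p = 0.000283 in edgeR). These chains assemble with each other, and their genes lie head to head on chromosome 8 with starts 21 bp apart. Col4a5, a chain of another type IV network encoded on the X chromosome, had 6.19, 5.89 and 4.54 TPM in Atm-/- and 14.9, 11 and 19.8 TPM in Atm+/+ passage 8 cells, or -1.13 ± 0.24 (SE, adjusted p = 0.011 in edgeR). Its call ended without Atm+/+ passage 8 replicate 3, with a log2 fold change of -0.97 and an edgeR adjusted p = 0.0661.

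FACIT collagens of fibroblasts were lower as well. Col12a1, found on type I fibrils of tissues under load, had 25.4, 38.9 and 14.1 TPM in Atm-/- passage 8, against 101, 85.3 and 139 TPM in Atm+/+ passage 8, log2 fold change -1.79 ± 0.34 (SE, adjusted p = 0.00636 in edgeR). Col14a1, its close relative, had 8.82, 28.4 and 10.7 TPM without Atm and 40.8, 36.6 and 61.5 TPM with it, or -1.25 ± 0.29 (SE, adjusted p = 0.0187 in edgeR). The call of Col14a1 ended without Atm+/+ passage 8 replicate 3, at -1.06 with an edgeR adjusted p = 0.0963. Col16a1 had 37.9, 57.1 and 38.9 TPM in Atm-/- and 112, 92.1 and 109 TPM in Atm+/+ passage 8 cells, or -0.90 ± 0.18 (SE, adjusted p = 0.00822 in edgeR). No library of the Atm-/- group reached the lowest Atm+/+ library in any of the 3 genes.

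Type VI collagen, which forms beaded filaments around cells from 3 different chains, fell in all of its main chains. Col6a1 had 38.7, 73.8 and 27.5 TPM in Atm-/- passage 8, against 211, 177 and 224 TPM in Atm+/+ passage 8, log2 fold change -1.86 ± 0.21 (SE, adjusted p = 0.000296 in edgeR). Col6a2 had 14.8, 29.7 and 13.6 TPM in Atm-/- and 86.1, 68 and 86.9 TPM in Atm+/+ passage 8 cells. Col6a3 had 3.55, 5.30 and 4.36 TPM in Atm-/- and 16.8, 13.9 and 18.4 TPM in Atm+/+ passage 8 cells. They differed by -1.76 ± 0.21 and -1.54 ± 0.22, without overlap. Another 3 that fell were scarce. Col24a1, a fibrillar chain, was at 0.00609, 0.0350 and 0 TPM in Atm-/- and 0.123, 0.130 and 0.226 TPM in Atm+/+ passage 8 cells. Col9a2, a FACIT chain of cartilage, was at 0.119, 0.103 and 0 TPM in Atm-/- and 0.571, 0.281 and 0.486 TPM in Atm+/+ passage 8 cells. The membrane-spanning Col13a1 was at 0.0412, 0.0316 and 0 TPM in Atm-/- and 0.234, 0.138 and 0.341 TPM in Atm+/+ passage 8 cells.

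Not every abundant collagen followed. Col8a1, the network-forming chain of type VIII, had 87.5, 127 and 104 TPM in Atm-/- and 132, 158 and 163 TPM in Atm+/+ passage 8 cells, log2 fold change -0.16 ± 0.28 (SE, adjusted p = 0.727 in edgeR). Col28a1, a von Willebrand factor A domain collagen, had 10.2, 36.1 and 16.7 TPM in Atm-/- and 24.6, 31.5 and 35.9 TPM in Atm+/+ passage 8 cells, or -0.24 ± 0.38 (SE, adjusted p = 0.704 in edgeR). Col8a1 was lower in TPM in every Atm-/- library, and the Col28a1 groups overlapped. Col7a1, Col15a1, Col18a1 and Col23a1 did not pass either, with log2 fold changes of 0.42 ± 0.26, 0.87 ± 0.48, -0.54 ± 0.28 and 0.08 ± 0.39.

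Other cell types differed between these groups too. The 8 smooth muscle and pericyte markers summed to 3607 to 5188 TPM in Atm-/- and 8845 to 9687 TPM in Atm+/+ passage 8 libraries, with 6 lower and 1 higher. Of the 5 mesothelial markers 3 were higher, at summed levels of 7.51 to 38.5 TPM in Atm-/- and 1.83 to 3.05 TPM in Atm+/+ passage 8, with Lrrn4 at 0 in the Atm-/- libraries. Of the 10 fibroblast markers 5 were lower and 2 higher, while their sums were 2504 to 3457 TPM in Atm-/- and 2915 to 3205 TPM in Atm+/+ passage 8. Endothelial markers were higher in 4 of 7 cases, at sums of 3.33 to 17.2 TPM in Atm-/- and 1.38 to 1.73 TPM in Atm+/+ passage 8. Macrophage markers were lower in 3 of 8 cases, at 19.5 to 61.0 TPM in Atm-/- and 69.3 to 109 TPM in Atm+/+ passage 8. The part of these cells in the collagen differences was not tested. A fit of only the 6 libraries compared called 1 collagen, Col1a2, and 18 genes in all. Without the pair of libraries with few genes detected 21 collagens passed, 2 higher and 19 lower, of 25% of all genes called.

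Early cultures of the genotypes were compared at passage 2. No collagen differed by the main test: 0 of 37 were called in edgeR, where 0.969% of all genes were. At an unadjusted p under 0.05 there were 9 (3 higher and 6 lower), and all genes were not counted at that cut. DESeq2 called 5 collagens (2 higher and 3 lower), among 863 genes (392 higher and 471 lower). In edgeR, 0.628% of all genes were called higher and 0.341% lower. The groups did not overlap for 6 collagens higher and 6 lower, against 13.7% and 12.1% of all genes. The median log2 fold change was -0.08 over the collagens and 0.04 over all genes. Col1a1 had 2074, 2287 and 2895 TPM in Atm-/- passage 2, against 1898, 2378 and 1221 TPM in Atm+/+ passage 2, log2 fold change 0.19 ± 0.21 (SE, adjusted p = 0.643 in edgeR). Col3a1 had 1891, 2754 and 2673 TPM in Atm-/- and 2988, 4769 and 1317 TPM in Atm+/+ passage 2 cells, or -0.47 ± 0.40 (SE, adjusted p = 0.544 in edgeR). The Atm+/+ values spread widely, with replicate 2 high and replicate 3 low. The Atm-/- values of Col3a1 lay inside that range, while Col1a1 reached above it in Atm-/- replicate 3, at 2895 TPM.

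The chains called by DESeq2 were Col11a1 and Col28a1, higher, and Col27a1, Col6a1 and Col6a2, lower. Col11a1, the chain of type XI that primes thin fibrils, had 13.3, 12.3 and 17.9 TPM in Atm-/- passage 2, against 5.76, 8.28 and 1.81 TPM in Atm+/+ passage 2, log2 fold change 1.32 ± 0.30 (SE, adjusted p = 0.0662 in edgeR). Col27a1, a fibrillar chain of cartilage, had 1.98, 2.26 and 2.47 TPM without Atm and 4.13, 4.78 and 8.53 TPM with it, or -1.72 ± 0.38 (SE, adjusted p = 0.0544 in edgeR). Col6a1 had 122, 149 and 139 TPM in Atm-/- and 213, 218 and 155 TPM in Atm+/+ passage 2 cells, or -0.76 ± 0.20 (SE, adjusted p = 0.104 in edgeR). The groups of these 3 genes did not overlap. Without Atm+/+ passage 2 replicate 2, 5 collagens passed (Col11a1 higher, and Col27a1, Col16a1, Col6a1 and Col6a2 lower), and so did 1787 genes in all, against 176 with all libraries. It was 3 collagens of 210 genes without replicate 2 of Atm-/- passage 8, 3 of 831 without its replicate 3, and 1 of 125 without replicate 3 of Atm+/+ passage 2. In the 13 libraries it was 3 (Col11a1 higher, Col27a1 and Col6a1 lower), of 5.35% of all genes called. Of the smooth muscle and pericyte markers 5 of 8 were higher in Atm-/- passage 2 cells. Their sums were 6239.8 to 7660.0 TPM, against 2762 to 3496 TPM in Atm+/+ passage 2. Macrophage markers summed to 1089.5 to 1609 TPM in Atm-/- and 2227 to 2489 TPM in Atm+/+ passage 2, while 0 of 8 passed. The part of these cells was not tested.

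The comparisons of passage 8 with passage 2 ask how serial culture changes each genotype. In Atm-/- cells 4 collagens rose and 18 fell, of 37 tested, where 4.76% of all genes rose and 8.25% fell. In Atm+/+ cells 10 rose and 9 fell, where 9.8% of all genes rose and 13.5% fell. Without overlap between passages, 5 collagens were higher and 22 lower in Atm-/- cells, against 14.5% and 22.5% of all genes. In Atm+/+ cells 13 were higher and 11 lower without overlap, against 24.9% and 22.6% of all genes. On the scale of log2(TPM + 1) with limma the split in Atm-/- cells was 3 higher and 19 lower. So 13.6% of the collagens called were higher, near the 14.2% of all genes called on that scale. In Atm+/+ cells limma called 12 higher and 7 lower, or 63.2% higher, against 52.9% of all genes called. The median log2 fold change of the tested collagens was -1.12 in Atm-/- and 0.27 in Atm+/+ cells, while over all genes it was -0.08 in Atm-/- and 0.00 in Atm+/+ cells. Some collagens moved the same way in both genotypes, and others did not.

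The fibrillar chains of types I and III are given first. The passage 8 levels are given above, and at passage 2 Col1a2 had 1636, 1852 and 2204 TPM in Atm-/- and 1912, 2172 and 1323 TPM in Atm+/+ cells. With passage Col1a2 fell by 1.19 on the log2 scale in Atm-/- cells (SE 0.17, edgeR adjusted p = 0.000313) and rose in Atm+/+ cells, by 0.58 ± 0.17 (SE, adjusted p = 0.0221 in edgeR). The rise in Atm+/+ cells did not pass without Atm+/+ passage 8 replicate 1 (0.52, edgeR adjusted p = 0.088) or replicate 3 (0.58, edgeR adjusted p = 0.073). Col1a1 changed by -1.88 ± 0.22 (SE, adjusted p = 7.66e-05 in edgeR) in Atm-/- and by 0.40 ± 0.21 (SE, adjusted p = 0.177 in edgeR) in Atm+/+ cells. Col3a1 changed by -2.55 ± 0.42 (SE, adjusted p = 0.00115 in edgeR) in Atm-/- and by -0.31 ± 0.40 (SE, adjusted p = 0.595 in edgeR) in Atm+/+ cells. In Atm+/+ cells neither Col1a1 nor Col3a1 passed, while in Atm-/- cells all 3 chains of types I and III fell.

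Col5a2 had 637, 617 and 689 TPM in Atm-/- and 423, 599 and 268 TPM in Atm+/+ passage 2 cells. Its log2 change was -0.30 ± 0.18 relative to passage 2 in Atm-/- cells, which did not pass, and it rose in Atm+/+ cells by 1.18 ± 0.18 (SE, adjusted p = 0.000455 in edgeR). Col5a1, its partner chain, had 120.3, 130.1 and 149 TPM in Atm-/- and 118, 166 and 82.5 TPM in Atm+/+ passage 2 cells. It changed by -0.73 ± 0.17 (SE, adjusted p = 0.0109 in edgeR) in Atm-/- cells and by 0.14 ± 0.17 (SE, adjusted p = 0.576 in edgeR) in Atm+/+ cells. The fall of Col5a1 ended without Atm-/- passage 2 replicate 3 (-0.62, edgeR adjusted p = 0.0694) or Atm-/- passage 8 replicate 1 (-0.61, edgeR adjusted p = 0.0503). Col11a1 changed by -0.81 ± 0.30 (SE, adjusted p = 0.0975 in edgeR) in Atm-/- and by 1.28 ± 0.30 (SE, adjusted p = 0.00896 in edgeR) in Atm+/+ cells. In Atm+/+ cells the 3 passage 8 libraries exceeded all 3 passage 2 libraries for Col5a2 and for Col11a1.

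Of the 6 type IV chains, Col4a1, Col4a2 and Col4a5 rose with passage in Atm+/+ cells. Col4a1 had 290.0, 305 and 363 TPM in Atm-/- and 282, 402 and 150.4 TPM in Atm+/+ passage 2 cells. Col4a2 had 269, 255 and 312 TPM in Atm-/- and 283, 334 and 202 TPM in Atm+/+ passage 2 cells. Col4a1 changed by -1.12 ± 0.21 (SE, adjusted p = 0.0027 in edgeR) in Atm-/- and by 0.73 ± 0.21 (SE, adjusted p = 0.0237 in edgeR) in Atm+/+ cells. Col4a2 changed by -0.84 ± 0.16 (SE, adjusted p = 0.00348 in edgeR) in Atm-/- and by 0.48 ± 0.16 (SE, adjusted p = 0.0496 in edgeR) in Atm+/+ cells. Both rises lay near the threshold. That of Col4a1 ended without Atm+/+ passage 2 replicate 1 or 3 or Atm+/+ passage 8 replicate 1 or 3 (0.56 to 0.78, edgeR adjusted p 0.0525 to 0.0996). That of Col4a2 ended without any of the same 4 libraries, replicate 1 of Atm-/- passage 2, or irradiated replicate 1 or 3 (0.41 to 0.52, edgeR adjusted p 0.0502 to 0.17). Col4a5, at 2.43, 3.51 and 3.36 TPM in Atm-/- and 1.92, 2.78 and 1.16 TPM in Atm+/+ passage 2 cells, rose in both genotypes. The rise was 1.19 ± 0.24 (SE, adjusted p = 0.00443 in edgeR) in Atm-/- and 2.79 ± 0.25 (SE, adjusted p = 5.77e-06 in edgeR) in Atm+/+ cells. In Atm-/- cells it did not pass on log2(TPM + 1) with limma (0.67, limma adjusted p = 0.116).

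Among FACIT chains, Col12a1 had 45.5, 45.4 and 49.1 TPM in Atm-/- and 26.5, 48.9 and 9.72 TPM in Atm+/+ passage 2 cells. It changed by -0.56 ± 0.33 (SE, adjusted p = 0.291 in edgeR) in Atm-/- and by 1.83 ± 0.34 (SE, adjusted p = 0.00171 in edgeR) in Atm+/+ cells, where no passage 2 library reached the lowest passage 8 library. Col14a1 had 44.5, 44.4 and 44.9 TPM in Atm-/- and 37.2, 43.6 and 30.7 TPM in Atm+/+ passage 2 cells. It fell in Atm-/- cells by 1.18 (SE 0.29, edgeR adjusted p = 0.0151), a call that ended without Atm-/- passage 2 replicate 1 (-1.12, edgeR adjusted p = 0.0523) or replicate 3 (-1.16, edgeR adjusted p = 0.0507). In Atm+/+ cells it changed by 0.09 ± 0.29 (SE, adjusted p = 0.835 in edgeR). Col16a1 passed in neither genotype, with 59.8, 61.1 and 60.2 TPM in Atm-/- and 71.6, 77.1 and 71 TPM in Atm+/+ passage 2 cells.

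The 3 main beaded filament chains fell in Atm-/- cells, and none of them passed in Atm+/+ cells. Col6a1 changed by -1.25 ± 0.20 (SE, adjusted p = 0.000961 in edgeR) in Atm-/- and by -0.15 ± 0.20 (SE, adjusted p = 0.597 in edgeR) in Atm+/+ cells. Its mean TPM in Atm+/+ cells went the other way, at 204 at passage 8 and 195 at passage 2. Col6a2 had 62.8, 76.9 and 78 TPM in Atm-/- and 114, 107 and 85.1 TPM in Atm+/+ passage 2 cells, and changed by -1.59 ± 0.21 and -0.57 ± 0.20 in these genotypes. Col6a3 had 13.2, 15.2 and 20.9 TPM in Atm-/- and 14.1, 19.5 and 9.29 TPM in Atm+/+ passage 2 cells. It changed by -1.52 ± 0.22 in Atm-/- and by 0.02 ± 0.21 in Atm+/+ cells. For all 3 chains the Atm-/- passage 8 libraries lay below every Atm-/- passage 2 library.

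The difference of the passage effects, Atm-/- minus Atm+/+, tests whether the genotypes responded differently. It was negative and passed for 11 of the 37 collagens and positive for 0, where 1.97% of all genes were called lower and 2.46% higher. Beside them, 5 of 8 smooth muscle and pericyte markers had a negative difference that passed and 1 a positive one, 3 of 7 endothelial markers a positive one, and of the 10 fibroblast markers 2 a negative and 1 a positive one. Their part was not tested. The 11 collagens were 5 fibrillar chains (Col1a1, Col1a2, Col3a1, Col5a2 and Col11a1), 3 of type IV (Col4a1, Col4a2 and Col4a5), Col12a1, Col6a1 and Col6a3. The median difference was -1.08 over the tested collagens and -0.14 over all genes. The largest was -2.38 ± 0.47 (SE, adjusted p = 0.0209 in edgeR) for Col12a1, followed by -2.28 ± 0.30 (SE, adjusted p = 0.00333 in edgeR) for Col1a1 and -2.24 ± 0.57 (SE, adjusted p = 0.0462 in edgeR) for Col3a1. Those of Col3a1 and Col6a1 (-1.10 ± 0.28, SE, adjusted p = 0.0465 in edgeR) lay at the threshold. Col3a1 kept its call without replicate 1 or 2 of Atm-/- passage 8 or replicate 2 of Atm+/+ passage 2, and lost it without any of the other 12 libraries (edgeR adjusted p 0.0595 to 0.127). Col6a1 lost it without any of 13 libraries (edgeR adjusted p 0.0515 to 0.128), all but Atm+/+ passage 2 replicate 2 and Atm-/- passage 8 replicate 2. Calls of 6 further chains also rested on single libraries. That of Col12a1 ended without any 1 library of Atm-/- passage 2, Atm+/+ passage 2 replicate 1 or Atm+/+ passage 8 replicate 1 or 3 (-2.45 to -2.23, edgeR adjusted p 0.051 to 0.0744). That of Col11a1 ended without Atm-/- passage 2 replicate 1 or 3, Atm+/+ passage 2 replicate 1 or Atm+/+ passage 8 replicate 1 or 3 (-2.23 to -1.94, edgeR adjusted p 0.0528 to 0.0782). That of Col4a5 ended without Atm-/- passage 2 replicate 2 or 3, Atm+/+ passage 2 replicate 1 or Atm+/+ passage 8 replicate 1 or 3 (-1.62 to -1.44, edgeR adjusted p 0.0611 to 0.0863). That of Col6a3 ended without replicate 3 of Atm-/- passage 2, replicate 1 of Atm+/+ passage 2 or Atm+/+ passage 8 replicate 1 or 3 (-1.56 to -1.35, edgeR adjusted p 0.0547 to 0.0698). Those of Col5a2 (-1.44, edgeR adjusted p = 0.051) and Col4a2 (-1.25, edgeR adjusted p = 0.0517) ended without Atm+/+ passage 8 replicate 3. Calls of Col1a1, Col1a2 and Col4a1 held without any 1 library. Leaving out Atm+/+ passage 8 replicate 3 left 3 collagens and 79 genes called, and leaving out replicate 2 of Atm+/+ passage 2 gave 17 collagens and 4600 genes, against 11 and 804 with all libraries. The 4 groups fitted alone gave 6 collagens and 120 genes. A fit with the replicate number within each genotype as a block gave 5 collagens and 144 genes. It ended the calls of Col3a1, Col5a2, Col11a1, Col4a5, Col12a1 and Col6a1. At an unadjusted p under 0.05 there were 17 negative and 3 positive differences, and all genes were not counted at that cut. DESeq2 called 16 negative and 1 positive, among 3472 genes (1365 negative and 2107 positive). With limma on log2(TPM + 1), 15 were negative and 0 positive. There 21.2% of all genes called were positive, and the median over all genes was -0.50.

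**Figure D3:**
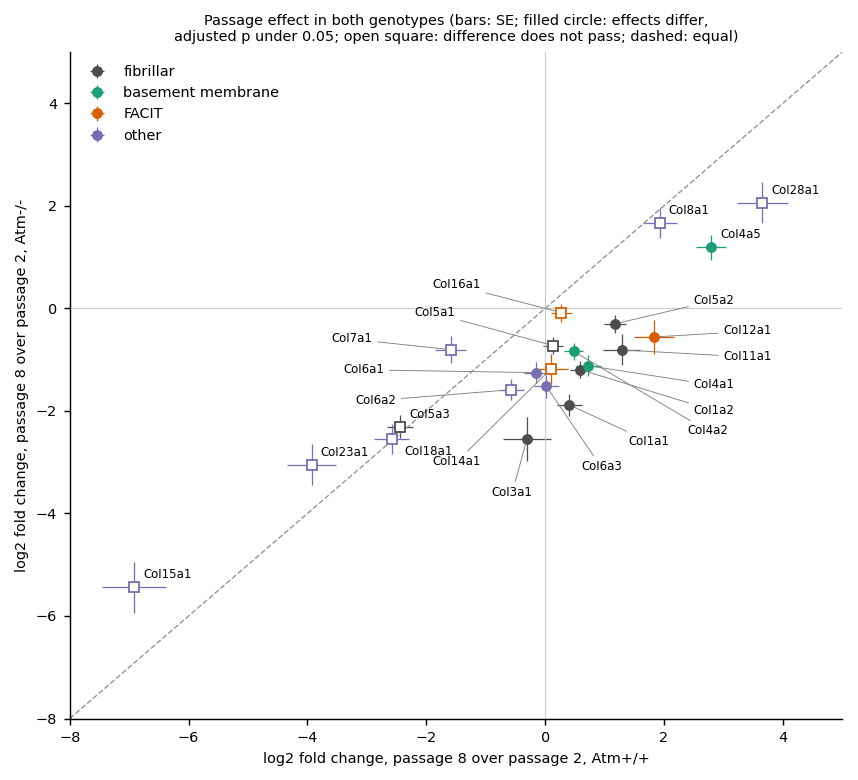
Log2 fold change of passage 8 over passage 2 in Atm+/+ cells (horizontal axis) and in Atm-/- cells (vertical axis) for the 22 collagens, with SE bars and the line of equal change. Filled circles mark the 11 whose passage effects differed between genotypes, all below the line, and open squares along it include Col15a1, Col23a1, Col18a1 and Col5a3.

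Other collagens fell with passage in both genotypes, among them the multiplexins, a membrane-spanning chain and the fibrillar Col5a3. Col15a1 (chromosome 4, 47208161 to 47313167, plus strand), a multiplexin of vessel and muscle basement membranes, had 0.261, 0.802 and 0.790 TPM in Atm-/- passage 8, against 24.9, 29.5 and 48.1 TPM in Atm-/- passage 2. In Atm+/+ cells it had 0.260, 0.317 and 0.691 TPM at passage 8, against 46.9, 56.8 and 30.2 TPM at passage 2. The log2 fold changes were -5.44 ± 0.50 (SE, adjusted p = 1.4e-05 in edgeR) in Atm-/- and -6.92 ± 0.53 (SE, adjusted p = 2.27e-06 in edgeR) in Atm+/+ cells, the steepest falls among the 22. Col18a1, the other multiplexin and the source of endostatin, had 12.4, 23.7 and 11.1 TPM in Atm-/- passage 8 and 83.5, 108 and 153 TPM in Atm-/- passage 2. Its levels were 27.5, 25.2 and 31.5 TPM in Atm+/+ passage 8 and 139, 228 and 87.6 TPM in Atm+/+ passage 2. It changed by -2.54 ± 0.29 in Atm-/- and by -2.58 ± 0.29 in Atm+/+ cells, without overlap.

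Col23a1, a membrane-spanning collagen, had 0.653, 0.866 and 1.29 TPM in Atm-/- passage 8 and 9.40, 10.4 and 10.9 TPM in Atm-/- passage 2. Its Atm+/+ levels were 0.778, 1.75 and 0.883 TPM at passage 8 and 13.9, 22.1 and 10.5 TPM at passage 2. It changed by -3.05 ± 0.41 (SE, adjusted p = 0.000212 in edgeR) in Atm-/- and by -3.93 ± 0.41 (SE, adjusted p = 2.04e-05 in edgeR) in Atm+/+ cells, with every passage 8 library below every passage 2 library of its genotype. Col5a3, a scarce chain of type V, had 2.00, 2.88 and 1.15 TPM in Atm-/- passage 8 and 9.63, 12.2 and 14.9 TPM in Atm-/- passage 2. In Atm+/+ cells it had 2.88, 2.56 and 2.83 TPM at passage 8 and 11.5, 14 and 12.5 TPM at passage 2. The falls were -2.31 ± 0.22 in Atm-/- and -2.44 ± 0.22 in Atm+/+ cells. Col7a1, the anchoring fibril collagen, had 4.46, 3.20 and 4.83 TPM in Atm-/- passage 8 and 8.83, 9.10 and 11.1 TPM in Atm-/- passage 2, which did not pass (-0.81 ± 0.26, SE, adjusted p = 0.0574 in edgeR). Its Atm+/+ levels were 4.06, 3.53 and 4.62 TPM at passage 8 and 8.04, 15.9 and 8.46 TPM at passage 2, and fell by 1.59 (SE 0.26, edgeR adjusted p = 0.000749). For Col15a1, Col18a1, Col23a1, Col5a3 and Col7a1 the difference of passage effects did not pass, at 1.47 ± 0.63, 0.04 ± 0.39, 0.88 ± 0.54, 0.13 ± 0.30 and 0.78 ± 0.36.

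Markers of other cell types moved beside these genes. All 8 macrophage markers fell with passage in both genotypes. Their sums were 19.5 to 61.0 TPM in Atm-/- passage 8, against 1089.5 to 1609 TPM in Atm-/- passage 2. In Atm+/+ cells they were 69.3 to 109 TPM at passage 8, against 2227 to 2489 TPM at passage 2. Ptprc and Adgre1, which define leukocytes and macrophages, were at 0 in all 3 Atm-/- passage 8 libraries. All 7 endothelial markers fell in both genotypes as well. Their sums were 3.33 to 17.2 TPM in Atm-/- passage 8 and 153 to 247 TPM in Atm-/- passage 2. They were 1.38 to 1.73 TPM in Atm+/+ passage 8 and 176 to 414 TPM in Atm+/+ passage 2. Smooth muscle and pericyte markers fell in 3 of 8 cases in Atm-/- cells, while 5 rose and 3 fell in Atm+/+ cells. Of the mesothelial markers 3 of 5 rose in Atm-/- and 2 of 5 in Atm+/+ cells, and of the 7 epithelial markers 2 fell in Atm-/- and 4 in Atm+/+ cells. The part of these cells in the passage changes of the collagens, such as the falls of Col15a1, Col18a1, Col23a1, Col5a3 and Col7a1 was not tested.

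Collagens that rose with passage in both genotypes were Col8a1, Col28a1 and, as given above, Col4a5. Col8a1 (chromosome 16, 57624258 to 57754737, minus strand) had 87.5, 127 and 104 TPM in Atm-/- passage 8, against 48.5, 40.3 and 40.8 TPM in Atm-/- passage 2. In Atm+/+ cells it had 132, 158 and 163 TPM at passage 8, against 33.6, 25 and 38.7 TPM at passage 2. The rises were 1.67 ± 0.29 (SE, adjusted p = 0.00153 in edgeR) in Atm-/- and 1.93 ± 0.29 (SE, adjusted p = 0.000359 in edgeR) in Atm+/+ cells, and no passage 2 library reached a passage 8 library of its genotype. Col28a1 had 10.2, 36.1 and 16.7 TPM in Atm-/- passage 8, against 7.69, 5.93 and 5.24 TPM in Atm-/- passage 2. Its Atm+/+ levels were 24.6, 31.5 and 35.9 TPM at passage 8, against 2.52, 3.24 and 0.851 TPM at passage 2. It rose by 2.06 ± 0.40 (SE, adjusted p = 0.0035 in edgeR) in Atm-/- and by 3.65 ± 0.43 (SE, adjusted p = 5.07e-05 in edgeR) in Atm+/+ cells. The difference between genotypes did not pass for Col8a1 (-0.26 ± 0.40, SE, adjusted p = 0.668 in edgeR) or Col28a1 (-1.59 ± 0.55, SE, adjusted p = 0.0843 in edgeR). In Atm-/- cells the scarce Col20a1 also rose, but a transcript that overlaps it on the same strand held more reads than the gene itself, so its call is uncertain.

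Promoters of 4 of these genes are shown, from RefSeq on GRCm38.p6, because the genes represent the patterns above: Col1a2 and Col3a1 fell with passage in Atm-/- cells, Col15a1 fell and Col8a1 rose in both genotypes. Of the 250 bases before the RefSeq start, the longest stretch without an exon of the GENCODE annotation is given, 5' to 3' on the gene's strand. That is all of them for Col3a1, Col15a1 and Col8a1. For Col1a2 it runs only from -248 to -126, so the bases next to its start are not shown. Capitals mark a TATA box, spelled TATAAA, or a GC box, spelled GGGCGG, on either strand, and CCAAT was searched as well.
Col1a2, chr6:4505370-4505492, plus strand: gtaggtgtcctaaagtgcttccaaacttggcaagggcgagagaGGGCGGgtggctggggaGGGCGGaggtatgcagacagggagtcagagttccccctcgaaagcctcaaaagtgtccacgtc
Col3a1, chr1:45311288-45311537, plus strand: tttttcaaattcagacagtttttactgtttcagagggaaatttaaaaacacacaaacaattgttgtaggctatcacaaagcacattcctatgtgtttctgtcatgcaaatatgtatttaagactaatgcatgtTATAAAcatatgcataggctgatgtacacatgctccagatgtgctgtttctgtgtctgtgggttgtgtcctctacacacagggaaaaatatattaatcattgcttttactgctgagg
Col15a1, chr4:47207762-47208011, plus strand: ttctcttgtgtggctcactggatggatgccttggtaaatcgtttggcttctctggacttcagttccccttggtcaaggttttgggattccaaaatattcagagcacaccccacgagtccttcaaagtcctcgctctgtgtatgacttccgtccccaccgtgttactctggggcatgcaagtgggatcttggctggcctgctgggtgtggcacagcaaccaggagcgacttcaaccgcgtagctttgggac
Col8a1, chr16:57754738-57754987, minus strand: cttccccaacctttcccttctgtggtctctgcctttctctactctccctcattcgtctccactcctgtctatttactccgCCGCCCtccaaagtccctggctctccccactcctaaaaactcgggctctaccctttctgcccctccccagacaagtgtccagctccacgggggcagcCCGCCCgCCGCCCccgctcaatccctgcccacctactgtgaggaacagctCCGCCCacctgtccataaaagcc
The shown stretch of Col1a2 held 2 GC boxes and no CCAAT, which stands elsewhere in its RefSeq window. That of Col8a1 held 4 GC boxes, all on the opposite strand. Col3a1 held 1 match to the letters TATAAA, at -117 to -112 from its start, and Col15a1 held none of the 3 motifs. Whether any match works as a promoter element was not tested.

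Among 38 promoter windows of 35 collagen genes (250 bases before to 50 after a RefSeq start, both strands), the GC box stood in 60.5%, against 35.6% of all 32817 windows. The TATA box stood in 13.2% of collagen windows and 13.6% of all, and the CCAAT box in 34.2% and 37.4%. The element CAGACA, which Smad proteins can bind, stood in 23.7% of collagen windows and 21% of all, among them those of Col1a2, Col3a1 and Col8a1. The palindromic Smad element GTCTAGAC stood in 0 of 38 collagen windows and 0.213% of all. The AP-1 site TGANTCA stood in 2.63% of collagen windows and 7.81% of all, and the E box CANNTG in 52.6% and 72.3%. These shares describe letters in the window and were not tested.

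Proportions between chains shifted with the groups. Type I collagen is normally built from a pair of chains from Col1a1 and a single chain from Col1a2. Per length, the ratio of Col1a1 to Col1a2 mRNA was 0.842, 0.831 and 0.687 for Atm-/- at passage 8, 1.27, 1.24 and 1.31 for Atm-/- at passage 2 and 1.23, 1.23 and 1.12 for irradiated cells. Unirradiated Atm+/+ cells had 0.939, 0.793 and 0.908 at passage 8, against 0.993, 1.09 and 0.923 at passage 2. The ratio was above 1 in all Atm-/- passage 2 and irradiated libraries and below 1 in all passage 8 libraries. Col4a1 to Col4a2 stayed between 0.746 and 1.24 in all 15 libraries.

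Relative to Col1a1, which fell there, 6 of the other 21 chains lay higher in every Atm-/- passage 8 library than in each of the 12 others (Col5a1, Col5a2, Col4a5, Col16a1, Col8a1 and Col28a1), and 0 lay lower. Mean Col1a1 was 539 TPM in Atm-/- passage 8 and 2749 TPM in Atm+/+ passage 8. Genes that fell less than Col1a1 tend to lie higher by this measure, and how many of all genes do so was not counted. Col5a2 and Col8a1, the most abundant of the 6 in Atm-/- passage 8, are given. The ratio of Col5a2 to Col1a1 was 0.896, 0.735 and 0.793 for Atm-/- at passage 8, 0.307, 0.270 and 0.238 for Atm-/- at passage 2 and 0.493, 0.525 and 0.553 for irradiated cells. Unirradiated Atm+/+ cells had 0.349, 0.460 and 0.404 at passage 8, against 0.223, 0.252 and 0.219 at passage 2. The ratio of Col8a1 to Col1a1 was 0.155, 0.169 and 0.348 in Atm-/- passage 8, against 0.0426, 0.0760 and 0.0530 in Atm+/+ passage 8. These ratios are descriptions without a test.

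**Figure D4:**
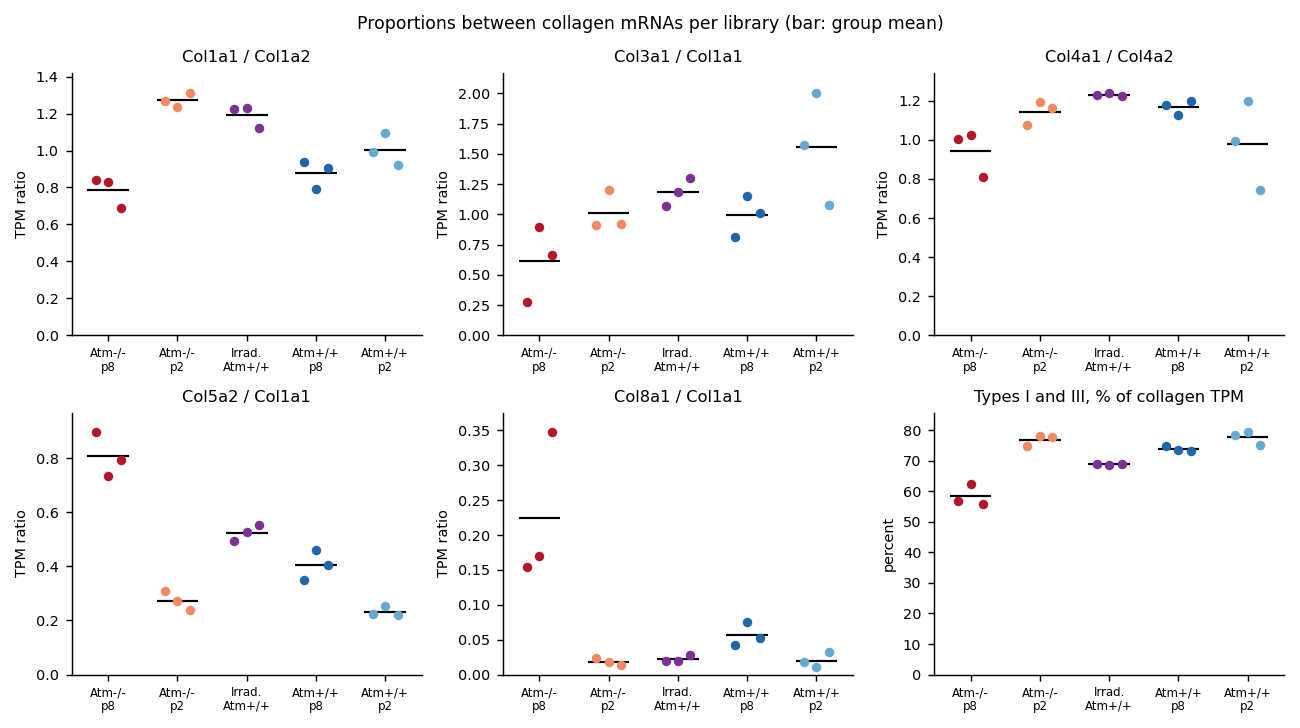
Ratios of TPM between chains, and types I and III as a percent of collagen TPM, in each library (points) with group means (bars). Col5a2 and Col8a1 relative to Col1a1 are highest in the 3 Atm-/- passage 8 libraries, where Col1a1 itself is lowest. The share of types I and III is lowest there too, at 56.9, 62.4 and 55.8%.

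Irradiated Atm+/+ cells serve as a control for senescence brought on by DNA damage, and were compared first with unirradiated passage 2 cells. Collagens moved both ways: 8 rose and 9 fell of 37 tested, where 11% of all genes rose and 16.5% fell. Without overlap 12 were higher and 13 lower, against 27.3% and 27.7% of all genes. On log2(TPM + 1) with limma the split was 11 higher and 6 lower, or 64.7% higher, against 71.8% of all genes called on that scale. The median log2 fold change was -0.19 over the tested collagens and -0.01 over all genes. The chains that rose included Col12a1, Col11a1, Col5a2, Col4a5 and Col28a1, and those that fell included Col15a1, Col18a1, Col23a1, Col5a3, Col6a1 and Col6a2.

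Col12a1 had 164, 139 and 158 TPM in irradiated cells, against 26.5, 48.9 and 9.72 TPM in Atm+/+ passage 2, log2 fold change 2.14 ± 0.34 (SE, adjusted p = 0.000926 in edgeR). Col11a1 had 24, 22.7 and 20.4 TPM in irradiated and 5.76, 8.28 and 1.81 TPM in unirradiated passage 2 cells, or 1.76 ± 0.31 (SE, adjusted p = 0.00166 in edgeR). Col5a2 had 1215, 1102 and 1127 TPM in irradiated and 423, 599 and 268 TPM in unirradiated passage 2 cells, or 1.05 ± 0.18 (SE, adjusted p = 0.00158 in edgeR). In these 3 genes every irradiated library lay above every unirradiated one. Types I and III did not pass. Col1a1 had 2463, 2098 and 2038 TPM in irradiated cells, Col1a2 had 2008, 1701 and 1814 TPM and Col3a1 had 2629, 2484 and 2642 TPM. Against passage 2 they changed by -0.12 ± 0.21, -0.37 ± 0.17 and -0.55 ± 0.40 in edgeR. In mean TPM, which is scaled otherwise, Col1a1 and Col1a2 went the other way and Col3a1 did not. Col1a1 averaged 2200 TPM in irradiated and 1833 TPM in unirradiated passage 2 cells, and Col1a2 averaged 1841 and 1802 TPM. Col5a1, at 226, 191 and 205 TPM in irradiated cells, did not pass either (0.38 ± 0.17, SE, adjusted p = 0.106 in edgeR).

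Of the 6 type IV chains, Col4a1 and Col4a5 rose after irradiation. Col4a1 had 577, 508 and 519.7 TPM in irradiated cells, and rose over passage 2 by 0.59 ± 0.21 (SE, adjusted p = 0.049 in edgeR). That call ended without any of 9 libraries, namely Atm-/- passage 2 replicate 1, Atm+/+ passage 2 replicate 1 or 3, and any library of Atm+/+ passage 8 or of the irradiated group (0.46 to 0.71, edgeR adjusted p 0.05 to 0.116). Col4a2, at 469, 409 and 425 TPM in irradiated cells, did not pass (0.27 ± 0.16, SE, adjusted p = 0.227 in edgeR). Col4a5 had 8.53, 6.02 and 10.4 TPM in irradiated and 1.92, 2.78 and 1.16 TPM in unirradiated passage 2 cells, a rise of 1.73 ± 0.24 (SE, adjusted p = 0.000412 in edgeR). Col28a1 had 7.40, 6.59 and 9.60 TPM in irradiated cells and rose by 1.49 ± 0.40 (SE, adjusted p = 0.0158 in edgeR), a call that ended without irradiated replicate 3 (1.38, edgeR adjusted p = 0.0544). Both genes were higher in every irradiated library than in any unirradiated passage 2 library.

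Of the main type VI chains, Col6a1 and Col6a2 fell after irradiation. Col6a1 had 122, 107 and 122 TPM in irradiated cells, against 213, 218 and 155 TPM in Atm+/+ passage 2, log2 fold change -1.16 ± 0.20 (SE, adjusted p = 0.00163 in edgeR). Col6a2 had 68.6, 58.5 and 60.0 TPM in irradiated and 114, 107 and 85.1 TPM in unirradiated passage 2 cells, or -1.13 ± 0.20 (SE, adjusted p = 0.00197 in edgeR). Col6a3, at 17.6, 15.9 and 14.7 TPM in irradiated cells, did not pass (-0.21 ± 0.21, SE, adjusted p = 0.476 in edgeR). Of the FACIT chains, Col14a1, at 41.5, 42.8 and 42.7 TPM, did not pass (-0.23 ± 0.29, SE, adjusted p = 0.573 in edgeR). Mean TPM of Col6a3 and Col14a1 went the other way, at 16.0 and 42.3 in irradiated, against 14.3 and 37.2 in unirradiated passage 2 cells. Col16a1, at 69.8, 56.7 and 66.6 TPM, fell by 0.63 (SE 0.18, edgeR adjusted p = 0.0202). Its TPM was lower in every irradiated library, and its call ended without Atm+/+ passage 2 replicate 3 or any 1 irradiated library (-0.64 to -0.42, edgeR adjusted p 0.0556 to 0.127). On the scale of log2(TPM + 1), limma called neither Col16a1 nor Col6a1 nor Col18a1.

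The multiplexins fell after irradiation too. Col15a1 had 13.1, 15.6 and 8.38 TPM in irradiated cells, against 46.9, 56.8 and 30.2 TPM in Atm+/+ passage 2, log2 fold change -2.24 ± 0.42 (SE, adjusted p = 0.00237 in edgeR). Col18a1 had 72.4, 97.9 and 52.3 TPM in irradiated cells and changed by -1.39 ± 0.28 (SE, adjusted p = 0.00391 in edgeR). Col23a1 had 5.35, 7.32 and 3.98 TPM and changed by -1.86 ± 0.38 (SE, adjusted p = 0.00377 in edgeR). All irradiated libraries of Col15a1 and Col23a1 lay between the passage 8 and the passage 2 values of Atm+/+ cells. Col5a3 had 6.05, 7.29 and 5.13 TPM in irradiated cells and changed by -1.49 ± 0.21 (SE, adjusted p = 0.000428 in edgeR). Col7a1, at 8.77, 10.7 and 7.55 TPM, did not pass (-0.65 ± 0.26, SE, adjusted p = 0.0764 in edgeR), nor did Col8a1, at 46.3, 39.3 and 57.2 TPM (0.06 ± 0.28, SE, adjusted p = 0.885 in edgeR). Endothelial markers summed to 42.4 to 134 TPM in irradiated cells, against 176 to 414 TPM in Atm+/+ passage 2, with 5 of 7 lower. Macrophage markers summed to 1684 to 2814 TPM in irradiated and 2227 to 2489 TPM in unirradiated passage 2 cells, with 2 of 8 lower. Smooth muscle and pericyte markers summed to 14076 to 15906 TPM in irradiated and 2762 to 3496 TPM in unirradiated passage 2 cells, with 5 of 8 higher and 1 lower. The part of these cells in the collagen changes was not tested.

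Against Atm+/+ passage 8, the question is how senescence after irradiation differs from late passage. Here 6 collagens were higher and 6 lower in irradiated cells, of 37 tested, where 4.3% of all genes were higher and 2.59% lower. Without overlap 11 were higher and 14 lower, against 22.8% and 25.6% of all genes. On log2(TPM + 1) with limma 5 were higher and 3 lower, or 62.5% higher, against 79% of all genes called on that scale. A fit of only these 6 libraries called 23 collagens and 6214 genes in all, against 1252 genes in the fit of all groups, and the fit of 13 libraries 20 of 25.5% of all genes called. Without irradiated replicate 2 the numbers were 6 collagens and 728 genes. The higher genes were those that passage had lowered: Col15a1 by 4.68 ± 0.49 (SE, adjusted p = 6.14e-05 in edgeR), Col23a1 by 2.07 ± 0.39 (SE, adjusted p = 0.00435 in edgeR), Col18a1 by 1.19 ± 0.28 (SE, adjusted p = 0.0188 in edgeR), Col5a3 by 0.95 ± 0.21 (SE, adjusted p = 0.0126 in edgeR) and Col7a1 by 0.94 ± 0.26 (SE, adjusted p = 0.0437 in edgeR). The sixth was the scarce FACIT chain Col22a1, at 0.569, 0.659 and 0.552 TPM in irradiated cells, against 0, 0.00621 and 0.0167 TPM in Atm+/+ passage 8. All 7 endothelial and 7 of 8 macrophage markers were higher in irradiated than in Atm+/+ passage 8 cells, at the sums given above, and their part was not tested. Passage and irradiation were set against the same Atm+/+ passage 2 libraries, and this comparison shares Atm+/+ passage 8 with the passage effect, so their values stand side by side without a correlation.

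The lower genes were led by Col28a1 (-2.16 ± 0.40, SE, adjusted p = 0.00415 in edgeR) and Col8a1 (-1.87 ± 0.29, SE, adjusted p = 0.00111 in edgeR), which passage had raised. Col8a1 had 46.3, 39.3 and 57.2 TPM in irradiated cells, against 132, 158 and 163 TPM in Atm+/+ passage 8. Col4a5 followed with -1.06 ± 0.24 (SE, adjusted p = 0.0133 in edgeR). Col6a1 changed by -1.0 ± 0.20 (SE, adjusted p = 0.00701 in edgeR), Col1a2 by -0.95 ± 0.17 (SE, adjusted p = 0.00261 in edgeR) and Col16a1 by -0.90 ± 0.18 (SE, adjusted p = 0.00652 in edgeR). Col1a1, the partner of Col1a2, did not pass (-0.52 ± 0.21, SE, adjusted p = 0.199 in edgeR). Several of these calls rested on single libraries. Col16a1 (-0.78, edgeR adjusted p = 0.0514) and Col6a1 (-0.90, edgeR adjusted p = 0.054) ended without irradiated replicate 2. Col4a5 ended without irradiated replicate 1 or 2 or Atm+/+ passage 8 replicate 1 or 3 (-1.07 to -0.83, edgeR adjusted p 0.0536 to 0.0842). Of the higher genes, Col5a3 ended without irradiated replicate 2 or Atm+/+ passage 8 replicate 2 or 3 (0.86 to 0.92, edgeR adjusted p 0.0605 to 0.0656). Col18a1 ended without irradiated replicate 1 or 2 or any 1 Atm+/+ passage 8 library (0.99 to 1.23, edgeR adjusted p 0.0563 to 0.1). Col7a1 ended without any 1 library of the irradiated, Atm+/+ passage 8 or Atm-/- passage 2 groups (0.85 to 1.07, edgeR adjusted p 0.0542 to 0.185). On log2(TPM + 1), limma did not call Col1a2, Col4a5, Col6a1 or Col18a1.

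**Figure D5:**
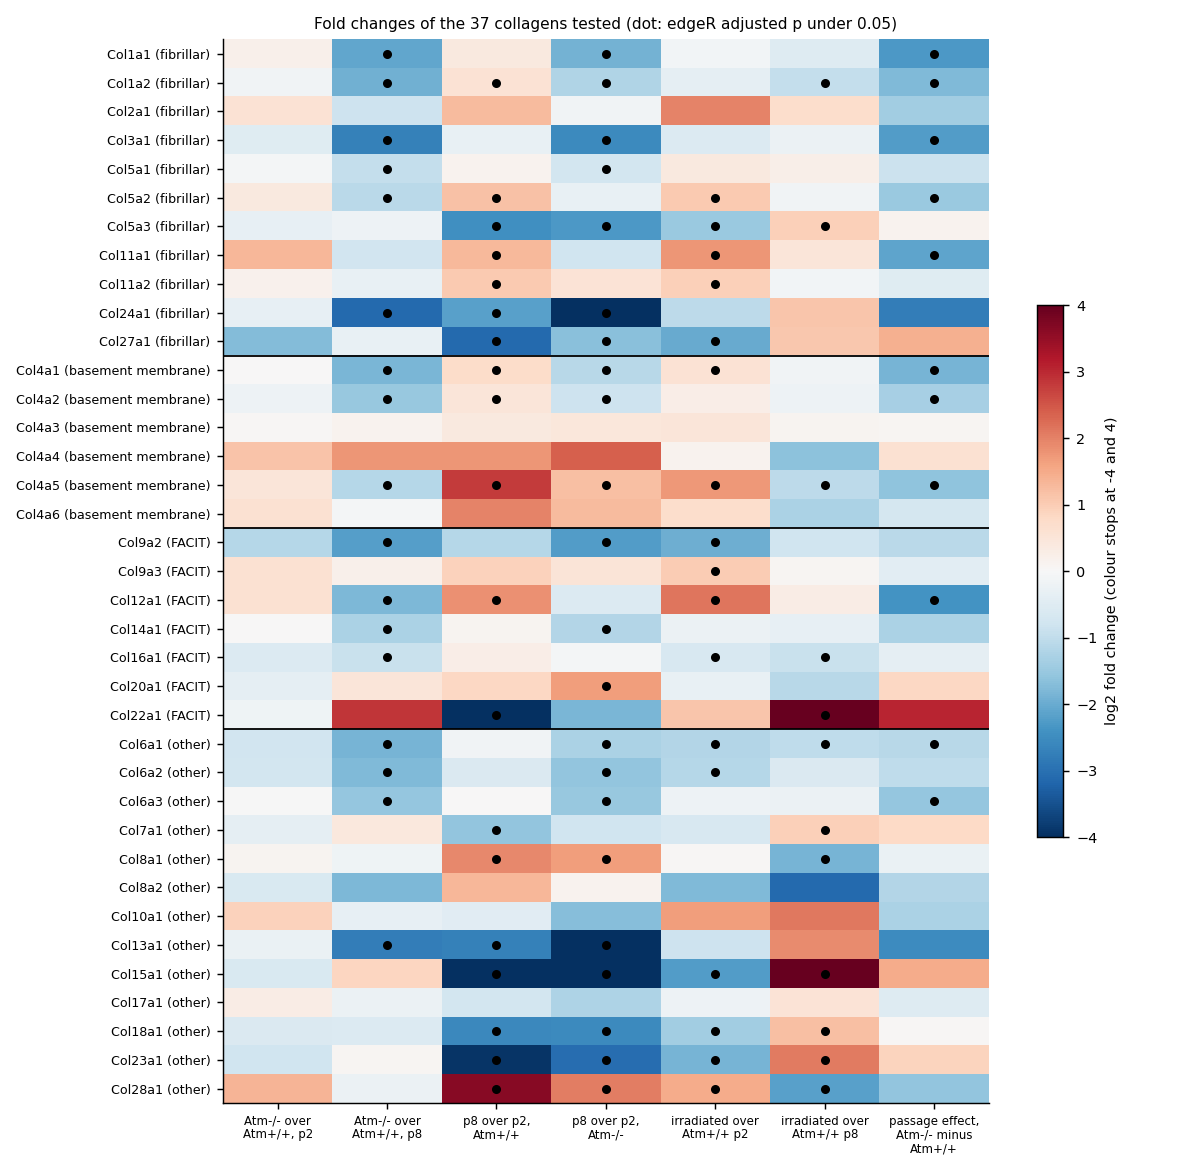
Log2 fold change (colour, stopping at -4 and 4) of the 37 collagens tested (rows, by class) in the 7 comparisons (columns), with a dot where the edgeR adjusted p is under 0.05. The column of Atm-/- over Atm+/+ at passage 8 holds 17 dots, all on blue cells, and the column at passage 2 holds none.

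The wider collagen pathway was read from 9 lists of genes for chain folding, export, propeptide removal, crosslinking, fibril binding, basement membrane partners, receptors, degradation and transcription factors, 80 of which were tested. In Atm-/- against Atm+/+ cells at passage 8, 21 were lower (26.2% of the 80, where 4.29% of all genes were) and 1 higher (1.25%, where 5.03% of all genes were). The median log2 fold change was -0.45 over the lists and -0.08 over all genes. At passage 2 the 3 called (Mmp9, Dpt and Fmod) were lower, 3.75% of the 80, where 0.341% of all genes were lower. With passage in Atm-/- cells 5 rose (6.25%, against 4.76% of all genes) and 15 fell (18.8%, against 8.25%). In Atm+/+ cells 20 rose (25%, against 9.8% of all genes) and 10 fell (12.5%, against 13.5%), so the falls were near the share of all genes. The passage effects differed for 12, of which 10 were negative (12.5%, against 1.97% of all genes) and 2 positive (2.5%, against 2.46%). Irradiated cells had 18 higher (22.5%, against 11% of all genes) and 13 lower (16.2%, against 16.5%) than Atm+/+ passage 2. Against Atm+/+ passage 8 they had 4 higher (5%, against 4.3%) and 7 lower (8.75%, against 2.59%).

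Of 16 tested genes for chain modification and folding, 3 fell without Atm at passage 8. Serpinh1, the chaperone that binds the collagen triple helix in the endoplasmic reticulum, had 910.1, 1209.7 and 521 TPM in Atm-/- and 2062, 1758 and 2152 TPM in Atm+/+ passage 8 cells, log2 fold change -0.91 ± 0.15 (SE, adjusted p = 0.00324 in edgeR). P4ha2, a subunit of prolyl 4-hydroxylase, which stabilises the helix, had 119, 154 and 77.2 TPM in Atm-/- and 224, 205 and 235 TPM in Atm+/+ passage 8 cells, or -0.64 ± 0.13 (SE, adjusted p = 0.00903 in edgeR). It rose with passage in Atm+/+ cells (1.06 ± 0.13, SE, adjusted p = 7.36e-05 in edgeR) and not in Atm-/- cells (-0.07 ± 0.13, SE, adjusted p = 0.755 in edgeR), and the difference passed (-1.13 ± 0.18, SE, adjusted p = 0.011 in edgeR). P3h4 rose with passage in Atm-/- cells, by 0.75 ± 0.13 (SE, adjusted p = 0.00165 in edgeR). Plod1, a lysyl hydroxylase, fell after irradiation, with a log2 fold change of -0.55 ± 0.11 (SE, adjusted p = 0.00383 in edgeR). Of the export genes, Mia3, Mia2 and Sec24d, which package procollagen at the endoplasmic reticulum, rose with passage in Atm+/+ cells by 0.55 ± 0.16, 0.98 ± 0.32 and 1.46 ± 0.45, and Mia3 and Sec24d also after irradiation. For these 3 genes the difference between genotypes did not pass.

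Of the enzymes that trim procollagen, Bmp1, which removes the C-terminal propeptide, had 59.9, 73 and 41 TPM in Atm-/- and 134, 122 and 143 TPM in Atm+/+ passage 8 cells, log2 fold change -0.91 ± 0.13 (SE, adjusted p = 0.00146 in edgeR). Its enhancer Pcolce did not pass there (-0.13 ± 0.19) but fell after irradiation, with a log2 fold change of -1.15 ± 0.20 (SE, adjusted p = 0.00147 in edgeR) against passage 2. Pcolce2 was higher in irradiated than in Atm+/+ passage 8 cells, with 1.04, 1.10 and 1.05 TPM, against 0.0418, 0 and 0.0662 TPM. Tll1, a relative of Bmp1, rose after irradiation against passage 2, by 1.47 ± 0.42 (SE, adjusted p = 0.0197 in edgeR). The crosslinking enzymes split. Lox, the main lysyl oxidase of fibrillar collagen, had 463, 555 and 323 TPM in Atm-/- passage 8, against 203, 219.7 and 236 TPM in Atm-/- passage 2. In Atm+/+ cells it had 659, 587 and 653 TPM at passage 8, against 193, 176 and 107 TPM at passage 2. So it rose with passage in both genotypes, by 1.35 ± 0.15 (SE, adjusted p = 5.2e-05 in edgeR) in Atm-/- and 1.80 ± 0.15 (SE, adjusted p = 3.4e-06 in edgeR) in Atm+/+ cells, and the difference did not pass (-0.45 ± 0.21, SE, adjusted p = 0.165 in edgeR). Loxl1, Loxl2 and Loxl3 were lower in Atm-/- than in Atm+/+ passage 8 cells, with log2 fold changes of -0.80 ± 0.18, -0.78 ± 0.13 and -0.78 ± 0.22. After irradiation 4 of the 5 genes were higher than at passage 2, among them Loxl2 (1.09 ± 0.13) and Loxl3 (1.18 ± 0.22), and Loxl1 was lower (-0.57 ± 0.18).

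Fibril-binding proteins fell in 5 of 9 tested cases without Atm at passage 8 (Dcn, Lum, Prelp, Sparc and Fn1). Sparc, a collagen-binding glycoprotein, had 2908, 3763 and 1992 TPM in Atm-/- and 7458, 6326 and 8165 TPM in Atm+/+ passage 8 cells, log2 fold change -1.05 ± 0.14 (SE, adjusted p = 0.00105 in edgeR). Fn1, fibronectin, on which fibrils assemble, changed by -1.30 ± 0.21 (SE, adjusted p = 0.00338 in edgeR). Dpt and Tnxb, which bind and space fibrils, differed in passage effect the other way, by 3.05 ± 0.47 and 2.02 ± 0.48. Among basement membrane partners of type IV collagen, Nid2 had 11.8, 75.1 and 9.89 TPM in Atm-/- and 364, 295 and 544 TPM in Atm+/+ passage 8 cells, or -3.43 ± 0.69 (SE, adjusted p = 0.00892 in edgeR). The laminin chain Lamb1 changed by -1.11 ± 0.14 (SE, adjusted p = 0.000632 in edgeR). Pxdn, the peroxidase that crosslinks type IV collagen, fell with passage in both genotypes, with log2 fold changes of -1.87 ± 0.28 in Atm-/- and -1.11 ± 0.28 in Atm+/+ cells. Agrn, a heparan sulfate proteoglycan of basement membranes, fell in Atm-/- cells, -0.85 ± 0.19, and the difference between genotypes did not pass (-0.86 ± 0.27, SE, adjusted p = 0.0664 in edgeR).

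Of 9 tested collagen receptors, 3 were lower without Atm at passage 8. Itga11, the integrin chain for fibrillar collagen on fibroblasts, had 2.60, 7.30 and 2.11 TPM in Atm-/- and 40.7, 29.7 and 38.1 TPM in Atm+/+ passage 8 cells. Itgb1, its beta partner, changed by -0.61 ± 0.17 (SE, adjusted p = 0.0386 in edgeR) between these groups. Itga2, another collagen-binding chain, fell with passage in Atm-/- cells, with a log2 fold change of -2.85 ± 0.68 (SE, adjusted p = 0.0129 in edgeR). Lair1, the collagen receptor of leukocytes, was at 0.0127 TPM or less in the passage 8 libraries, against 0.235, 0.319 and 0.220 TPM in Atm-/- and 0.333, 0.263 and 0.325 TPM in Atm+/+ passage 2 cells, beside the fall of the macrophage markers. Among degrading enzymes, Ctsk, a collagen-cleaving cathepsin, was the gene higher in Atm-/- passage 8, with 295, 224 and 91.9 TPM, against 129.6, 131 and 137 TPM in Atm+/+ passage 8 (0.86 ± 0.21, SE, adjusted p = 0.0236 in edgeR). Its TPM groups overlapped. Fap, a fibroblast protease that acts on cleaved collagen, was lower (-0.71 ± 0.20, SE, adjusted p = 0.0406 in edgeR). Mmp9, a gelatinase, was at 0.0411, 0.0157 and 0 TPM in Atm-/- passage 8, against 21.6, 14.4 and 16.9 TPM in Atm-/- passage 2. It was at 0.234, 0.482 and 0.201 TPM in Atm+/+ passage 8, against 82.8, 104 and 88.6 TPM in Atm+/+ passage 2. Mmp13, a collagenase, rose after irradiation against passage 2, by 3.10 ± 0.65 (SE, adjusted p = 0.00471 in edgeR). Of 15 tested transcription factors of collagen genes, 2 (Srf and Runx1) were lower without Atm at passage 8, Srf with a log2 fold change of -0.55 ± 0.12 (SE, adjusted p = 0.0155 in edgeR). After irradiation Nfyc (-0.93 ± 0.13) and Cebpb (-1.51 ± 0.24) were lower and Runx2 (1.38 ± 0.36) higher than at passage 2.

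The 22 collagens left outside the group with values in every library were low. The 15 of them that were tested reached at most 8.53 TPM in a library (Col27a1), and 8 of the 15 passed in at least 1 comparison (Col11a2, Col24a1, Col27a1, Col9a2, Col9a3, Col20a1, Col22a1 and Col13a1). Col11a2, the second chain of type XI, had 4.13, 3.81 and 4.40 TPM in irradiated cells, 3.75, 3.32 and 4.42 TPM in Atm+/+ passage 8 and 1.73, 1.88 and 1.22 TPM in Atm+/+ passage 2. It rose with passage in Atm+/+ cells (1.04 ± 0.21, SE, adjusted p = 0.00295 in edgeR) and after irradiation (0.94 ± 0.21, SE, adjusted p = 0.00596 in edgeR). Col27a1 fell with passage in Atm-/- cells by 1.67 (SE 0.40, edgeR adjusted p = 0.0126) and in Atm+/+ cells by 3.09 (SE 0.41, edgeR adjusted p = 0.000123). Near the floor were Col2a1, Col10a1 and Col17a1, which stayed at or below 0.239 TPM in every library. The 7 not tested had 2 to 102 reads each over all 15 libraries and at most 0.203 TPM in 1.

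Read counts of some members cannot be separated from those of overlapping genes, since the strand used in counting is not given in the sources used here. The overlapping gene held more reads than the collagen for Col10a1 (Nt5dc1), Col4a6 (a pseudogene) and Col20a1. It held 95.7% as many for Col4a3, 31.7% as many for Col9a3 (Tcfl5), so the rise of Col9a3 after irradiation is uncertain, and 5.12% as many for Col18a1 (Slc19a1). Col4a1 and Col4a2 overlap by 22 bp. Neighbouring pairs did not share one pattern. Col3a1 and Col5a2 lie tail to tail on chromosome 1 with 24614 bp between them, and with passage in Atm+/+ cells Col5a2 rose while Col3a1 did not pass (-0.31 ± 0.40).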

How the data were processed

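Total RNA of 15 libraries was sequenced from TruSeq preparations, per the labels. The submitters' processing notes name featureCounts, the build mm10 and SAMtools 1.3.1 for the counts per gene that the authors deposited. Neither aligner nor strand setting is given in the sources used here. The TPM values were deposited beside them. For 31 collagens they equalled counts per length, scaled to the library, within 1.64e-07%. Symbols came from GENCODE on GRCm38 and matched 48058 of 48440 identifiers. No column held samples of another series (0 columns).

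The 7 comparisons were contrasts in one quasi-likelihood fit of all 15 libraries (edgeR 4.0.16 in R 4.3.3, filterByExpr by group, TMM, robust dispersion, Benjamini-Hochberg over 18167 genes, threshold 0.05), tested on simulated data. The replicates of a group are 3 strains of a genotype, so the spread behind the p-values holds differences between strains and between libraries. The main fit had no term for strain and took all 15 libraries as independent, though the strains of a genotype recur across its groups. The alternatives were DESeq2 1.42.0, its size factors, no filter or a strict one (1 CPM in 3 libraries and a mean count of 50), limma 3.58.1 on log2(TPM + 1) or log2(TPM + 0.1) with genes at 0.5 TPM in 3 libraries or no filter, a fit of only the groups compared, a replicate block, 13 libraries, and leaving out each library. Figures were drawn with matplotlib 3.10.9. The collagens with values in every library passed in at least 1 comparison and reached a mean of 10 TPM in a group. From each pathway list, up to 4 genes with the lowest p among those called were described, and others are named only where a count is spelled out. Members and lists were chosen with earlier results of these data known. Overlapping genes were looked up in the annotation.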

Additional observations from a re-analysis of the deposited data

Results flagged for a closer look

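In 11 collagens the change from passage 2 to passage 8 differed between Atm-/- and Atm+/+ cells by the edgeR test of the difference itself. With a replicate block 5 of these calls held. The values are log2 differences of the passage effects, Atm-/- minus Atm+/+. Among fibrillar chains the difference was -2.28 for Col1a1, -1.78 for Col1a2, -2.24 for Col3a1, -1.48 for Col5a2 and -2.10 for Col11a1. Among basement membrane chains it was -1.84 for Col4a1, -1.32 for Col4a2 and -1.60 for Col4a5. It was -2.38 for Col12a1 of the FACIT class, and -1.10 for Col6a1 and -1.54 for Col6a3 of the beaded filaments. Col6a2, the other main type VI chain, did not pass, at -1.02 with an edgeR adjusted p = 0.0543.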

How the results depend on the processing

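No call of a named collagen changed sign under any alternative. Of 80 calls of single collagens, DESeq2 kept 80, its size factors in edgeR 79, the strict filter 79, the 13 libraries 79, no filter 77, limma 72 on log2(TPM + 1), 69 on log2(TPM + 0.1) and 61 without a filter, the replicate block 70 and a fit of only the groups compared 52. Leaving out 1 library ended 103 of 1200 such calls.

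For Atm-/- against Atm+/+ at passage 2, 0 collagens passed. The number was 1 without a filter, 5 in DESeq2, 1 in limma on log2(TPM + 1), 3 in 13 libraries, and 0 to 5 without 1 library. For the same genotypes at passage 8 it was 17, against 1 in the fit of only the groups compared and 13 to 19 without 1 library. For irradiated cells against Atm+/+ passage 8 it was 12, against 23 in the fit of only the groups compared, 20 in 13 libraries and 6 to 16 without 1 library. For the difference of passage effects it was 11, against 17 in DESeq2, 6 in the fit of only the groups compared, 5 in limma on log2(TPM + 1) without a filter and 3 to 17 without 1 library. Without 1 library, passage called 18 to 24 collagens in Atm-/- and 16 to 24 in Atm+/+ cells, and irradiation against passage 2 called 12 to 22. The cause of these shifts was not tested.

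Over all genes, the number called under the alternatives other than leaving out 1 library was 40 to 989 (176 in the fit reported) for the genotypes at passage 2 and 18 to 4629 (1693) at passage 8. It was 868 to 5026 (2362) for passage in Atm-/- and 2665 to 7418 (4227) in Atm+/+ cells. It was 3711 to 8561 (4998) for irradiation against passage 2, 923 to 6214 (1252) against passage 8 and 120 to 3472 (804) for the difference of passage effects. Without 1 library the numbers were 61 to 1787, 588 to 3390, 1476 to 3544, 2186 to 7500, 2677 to 8275, 722 to 2341 and 79 to 4600 in the same order.

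The replicate numbers were checked for pairing, since the labels do not state which libraries share a strain. Within a genotype, same-numbered libraries deviated from their group means with correlations of -0.202 to 0.19, and not every pair was above 0.1. Between genotypes, where libraries cannot share a strain, the correlations were -0.155 to 0.219. With 3 libraries per group and a pair of libraries with few genes detected, this check cannot show whether the numbers pair the libraries. The main fit held no pairing, and same-numbered libraries may still share strains. Between irradiated and Atm+/+ passage 8 cells all 3 libraries correlated best with their own number, at 0.038 to 0.086, a hint from the data and not the design. For the genotypes the block was the replicate number across both, which joins libraries of different strains. With it 1 and 15 collagens passed at passage 2 and 8. For the other comparisons the block was the number within each genotype. Then 21 and 17 passed for passage in Atm-/- and Atm+/+ cells, 14 and 11 for irradiation against passage 2 and 8, and 5 for the difference. The calls that the block ended there were those of Col3a1, Col5a2, Col11a1, Col4a5, Col12a1 and Col6a1, with edgeR adjusted p of 0.0566 to 0.0831.

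On log2(TPM + 1) the median of all genes was 0.22 for the genotypes at passage 2, -0.29 at passage 8, -0.32 for passage in Atm-/- and 0.19 in Atm+/+ cells, 0.32 and 0.14 for irradiation against passage 2 and 8, and -0.50 for the difference. Of the genes called, 26.8% were then higher in Atm-/- passage 8, against 53.9% in edgeR. The summed collagen level of Atm-/- over Atm+/+ passage 8 cells was -2.14 on the log2 scale in TPM and -1.86 as a share of counts. That of passage was -1.75 in TPM and -1.57 as a share in Atm-/- cells, and 0.44 and 0.27 in Atm+/+ cells. After irradiation against passage 2 it was 0.18 in TPM and -0.04 as a share, and for the genotypes at passage 2 it was 0.04 in TPM and -0.02 as a share.

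With 3 libraries per group and few reads of the scarce chains, a change that did not pass is not shown to be absent.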
